A study of Mus musculus with 18 samples.

Results

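Dendritic cells are rare leukocytes that take up antigen and present it to T cells, and 8 genes that mark them or act in their development were followed in mouse liver: Clec9a, Batf3, Itgae, Cd209a, Clec10a, Siglech, Flt3 and Zbtb46. They were taken by symbol from the table of gene counts, and all 8 were found among its 54752 genes. RNA came from the livers of 18 male C57BL/6 mice, 6 in each of 3 groups, in week 22. The mice were 6 weeks old at the start, when 45 of them were split into groups of 15. The CCl4_PTH group had carbon tetrachloride (CCl4) injected into the peritoneum 2 times a week and PTH given into the stomach daily. PTH, which the labels also write as PZH, is Pien Tze Huang, a traditional Chinese medicine. The CCl4 group had the same CCl4 injections and water into the stomach daily, and the control group had olive oil injected 2 times a week and water into the stomach daily. CCl4 is turned into a reactive radical by cytochrome P450 enzymes of hepatocytes, and repeated doses injure and scar the liver. The labels call the CCl4 mice a liver cancer model, and the sources used here do not say whether a piece of liver held tumour. Libraries are called by the numbers in their labels.

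Dendritic cells arise from bone marrow progenitors that carry the receptor Flt3 and respond to its ligand. They fall into type 1 conventional cells, which present antigen of dead cells to CD8 T cells, type 2 conventional cells, which mainly serve CD4 T cells, and plasmacytoid cells, which make type I interferon. In liver they lie mostly around the portal tracts. None of the 8 genes is a perfect mark in whole tissue: Itgae is also made by some T cells, Clec10a by macrophages and Zbtb46 by endothelium. In these bulk samples, a change in the number of cells of a type and a change in RNA per cell cannot be told apart.

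Total counts were 76.9 M to 119 M in CCl4_PTH libraries, 67.2 M to 83.8 M in CCl4 libraries and 77.2 M to 86.6 M in control libraries. On the second principal component of all tested genes, which held 7.65% of the variance, the library CCl4_PTH 1 lay at -43.4 and the other CCl4_PTH libraries between 32.3 and 55.1. Controls also split there, with control 1 at 26.4 and control 8 at 14.3, and the other 4 between -32.3 and -23.4. CCl4_PTH 1 was also the lowest library of its group for 6 of the 8 genes, so the number of the 8 genes past the threshold is given with and without it, while counts over other lists and all genes include it. Levels are CPM, counts scaled to a common library size with TMM factors, which set libraries level over most genes. Differences are log2 fold changes with their SE from edgeR's quasi-likelihood test over 21840 genes, and a gene was taken as changed at a Benjamini-Hochberg adjusted p under 0.05.

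In CCl4 livers 6 of the dendritic cell genes rose and none fell, against controls: Batf3, Clec10a, Siglech, Flt3, Itgae and Clec9a. Batf3 had the highest fold, 5.91, and Clec9a the lowest of the 6, 1.85. Cd209a and Zbtb46 did not pass the test. With edgeR, 0 of the 8 were lower also at an unadjusted p under 0.05, and 0 with DESeq2. These are 6 of 8 genes, where 26.3% of all tested genes were higher and 21.2% lower, 47.4% in all, and the median log2 fold change was 1.73 over the 8 genes and 0.05 over all genes. The same 6 genes passed without CCl4_PTH 1, which shares the fit.

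In CCl4_PTH livers, 1 of the 8 genes was lower than in CCl4 livers, Batf3, and none was higher, as at an unadjusted p under 0.05 and with DESeq2. Over all tested genes, 4.95% were lower and 7.1% higher in this comparison, 12.1% in all, and the median log2 fold change was -0.30 over the 8 genes and -0.03 over all genes. Batf3 also passed without CCl4_PTH 1, with a log2 fold change of -1.31 and an adjusted p of 0.0287. Against controls, 3 of the 8 genes were higher in CCl4_PTH livers, Itgae, Clec10a and Flt3, where 17.4% of all tested genes were higher and 10.3% lower, 27.7% in all. Without CCl4_PTH 1 that number was 4, Batf3 being the addition. The median log2 fold change against controls was 1.31 over the 8 genes and 0.04 over all genes. The 3 comparisons share libraries in pairs, so their results are not independent of each other.

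The filter on low counts touched these numbers. A gene needed about 0.121 CPM in enough libraries, and all 8 passed. Clec9a, Flt3 and Zbtb46 reached that level in all 6 libraries of each group. Itgae, Siglech and Batf3 reached it in all 12 CCl4_PTH and CCl4 libraries and in 4 of the 6 controls, and Clec10a in 3 of the 6 controls. Cd209a reached it in 5 CCl4_PTH, 5 CCl4 and 1 control libraries. These 5 genes could pass through the 2 groups given CCl4 alone, so the number past the filter is a description only. Among them are Batf3, Itgae, Siglech and Clec10a, which are counted in the 6 of 8 genes higher in CCl4 livers. The 8 genes were also chosen with earlier results of these data known. Their counts set beside the shares of all tested genes are therefore descriptions too. A library without counts of a gene allows up to 3 counts at its depth, counting error only, and does not show absence.

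**Figure D1:**
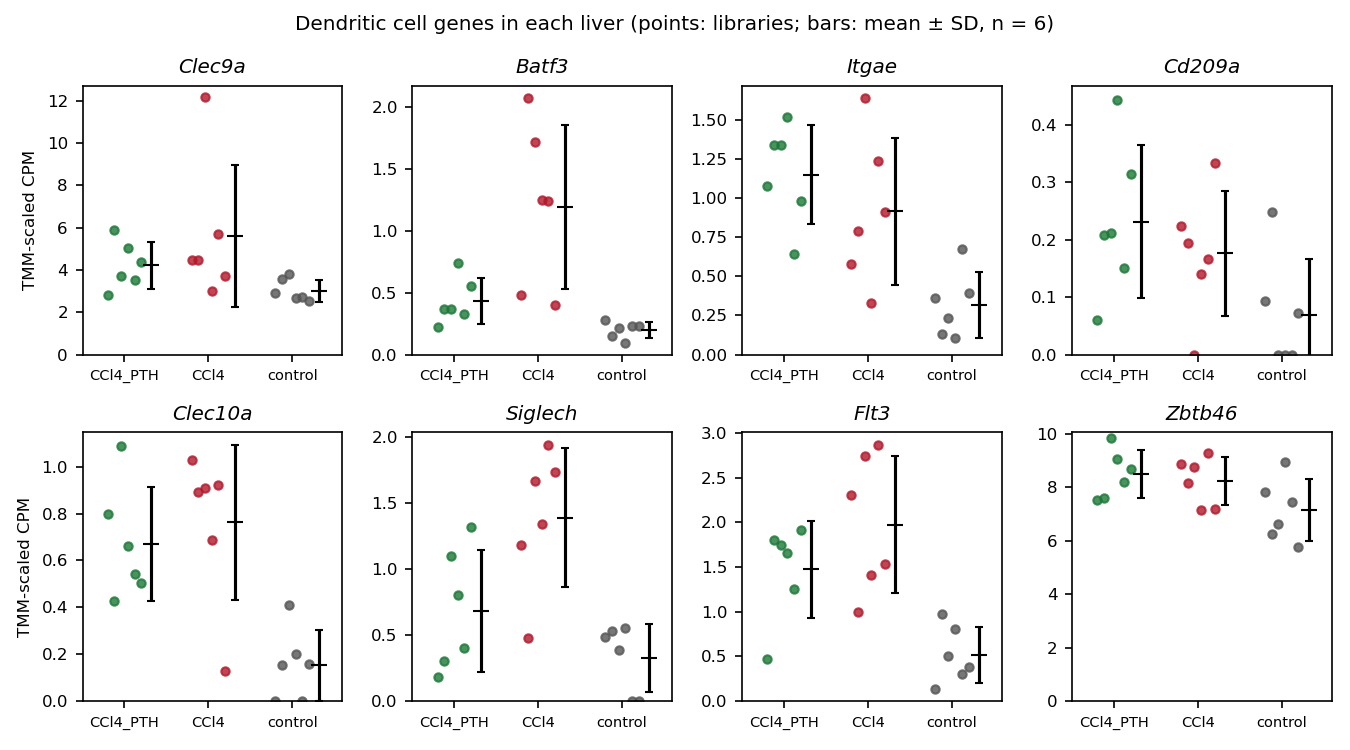
TMM-scaled CPM (vertical axis, linear, a scale of its own for each gene) of the 8 dendritic cell genes in 6 CCl4_PTH, 6 CCl4 and 6 control livers; points are libraries, horizontal lines are group means and vertical bars are the SD, cut at 0. All CCl4 points of Batf3 (0.397 to 2.07 CPM) and Flt3 (0.998 to 2.87 CPM) lie above all control points, while the 3 groups of Zbtb46 lie within 5.76 to 9.84 CPM.

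Clec9a, a C-type lectin of type 1 conventional cells that binds actin filaments exposed by dead cells, lies on chromosome 6 at 129408862 to 129424763 of GRCm38, plus strand, with 7 exon blocks in GENCODE M21. Its first exon shares 184 bases, from 129408862 to 129409045, with an exon of a transcript of its neighbour Clec1b on the same strand, an exon that runs from 129405107 to 129409335. Clec1b encodes a receptor for podoplanin found on platelets and some myeloid cells. Reads from the shared stretch cannot be assigned to either gene. The RefSeq promoter window of Clec9a, chr6:129408612-129408911 on the plus strand of GRCm38.p6, lies wholly inside that Clec1b exon and is printed for that reason. It runs from 250 bases before to 50 bases after the annotated start, capitals mark the E-box letters CANNTG, and N is any base:
Clec9a: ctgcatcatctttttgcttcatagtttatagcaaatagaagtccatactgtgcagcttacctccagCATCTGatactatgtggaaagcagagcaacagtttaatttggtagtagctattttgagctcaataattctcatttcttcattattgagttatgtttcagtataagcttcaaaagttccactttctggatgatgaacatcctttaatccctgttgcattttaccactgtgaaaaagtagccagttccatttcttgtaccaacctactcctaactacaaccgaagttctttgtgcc

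Clec9a had 2.83, 4.03 and 5.88 CPM in CCl4_PTH livers, 2.99, 4.47 and 12.2 CPM in CCl4 livers and 2.52, 2.79 and 3.79 CPM in control livers (lowest, median and highest of 6). Of the 6 CCl4 livers, 4 lay above the highest control, and the value of 12.2 belonged to CCl4 4, with the other CCl4 livers between 2.99 and 5.69. Clec9a was higher in CCl4 than in control livers, with a log2 fold change of 0.89 ± 0.28 (SE, n = 6 each, edgeR adjusted p = 0.012). Without CCl4 4 it was 0.51 ± 0.19 (edgeR adjusted p = 0.0411). The log2 difference of CCl4_PTH from CCl4 was -0.41 ± 0.27 (edgeR adjusted p = 0.36), and -0.01 without CCl4 4. That of CCl4_PTH from control was 0.48 ± 0.27 (edgeR adjusted p = 0.201). Neither passed the test.

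Clec1b moved with it. Its mean was 8.08 CPM in CCl4_PTH livers, 9.78 CPM in CCl4 livers and 6.43 CPM in control livers, and it was higher in CCl4 than in control livers with a log2 difference of 0.61 ± 0.19 (edgeR adjusted p = 0.0127). There were 41.3 to 61.7 Clec9a counts per 100 Clec1b counts in CCl4_PTH livers, 41.8 to 77.2 in CCl4 livers and 37.4 to 64.3 in control livers, and these ranges overlap. Across the 18 livers, after each group's mean was taken away, Clec9a and Clec1b had a Pearson r of 0.82 on log2 CPM, a description of libraries that share depth, scaling and the exon. The same r for Clec1b was 0.80 with Ptprc and between -0.43 and 0.56 with the other 7 genes. The part of shared reads in the Clec9a difference was not tested.

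**Figure D2:**
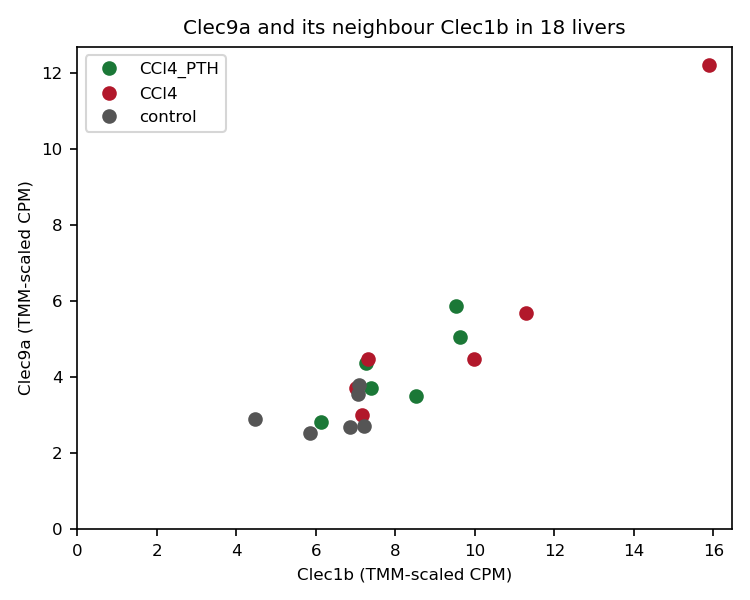
Clec9a (vertical axis, TMM-scaled CPM) against its neighbour Clec1b (horizontal axis, TMM-scaled CPM) in 18 livers, each point a library coloured by group. The points lie along a rising band, and the point at the upper right is CCl4 4, with 12.2 CPM of Clec9a.

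Batf3, a transcription factor of the AP-1 family that type 1 conventional cells need for their development, lies on chromosome 1 at 191097847 to 191108945, plus strand, with 5 exon blocks. It had 0.221, 0.367 and 0.740 CPM in CCl4_PTH livers, 0.397, 1.25 and 2.07 CPM in CCl4 livers and 0.0919, 0.222 and 0.278 CPM in control livers (lowest, median and highest of 6). Every CCl4 liver lay above every control, one of 2 such genes among the 8 (Flt3 was the other), where 14.8% of all tested genes were higher and 11.3% lower without overlap. Batf3 was higher in CCl4 than in control livers by 2.56 ± 0.42 (log2, SE, edgeR adjusted p = 6.44e-05).

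CCl4_PTH livers had less Batf3 than CCl4 livers, by -1.47 ± 0.39 on the log2 scale (SE, n = 6 each, edgeR adjusted p = 0.0201), a 2.77-fold difference. Of the 6 CCl4_PTH livers, 4 lay below the lowest CCl4 liver, and the ranges met between 0.397 and 0.740 CPM. None of the 8 genes was lower or higher without overlap between these groups, against 1.87% lower and 2.2% higher of all tested genes. The Batf3 call was lost without CCl4 2 (adjusted p = 0.0583), CCl4 4 (0.0549) or CCl4_PTH 7 (0.0527), and when only these 2 groups were fitted (0.0503). Its log2 fold change lay between -1.67 and -1.22 in all fits without 1 library. Against controls, Batf3 in CCl4_PTH livers was 1.09 ± 0.41 higher on the log2 scale and missed the threshold (edgeR adjusted p = 0.0545). It passed without CCl4 1 (0.0435), CCl4 8 (0.0364) or CCl4_PTH 1 (0.0358), and with DESeq2 (0.0376) or a fit of these 2 groups alone (0.0362).

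The RefSeq window of Batf3, chr1:191098164-191098463 on the plus strand, starts downstream of the GENCODE gene start, has 75.7% G and C, and is shown because Batf3 is the member that changed in both comparisons of CCl4 livers. Capitals mark E-boxes:
Batf3: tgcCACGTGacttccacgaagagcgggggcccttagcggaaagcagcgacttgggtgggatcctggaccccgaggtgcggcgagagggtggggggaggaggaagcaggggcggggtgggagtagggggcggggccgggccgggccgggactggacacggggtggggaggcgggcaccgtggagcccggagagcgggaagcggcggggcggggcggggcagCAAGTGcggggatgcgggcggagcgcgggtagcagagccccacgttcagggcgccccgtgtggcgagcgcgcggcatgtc

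Itgae, the alpha-E integrin chain (CD103) of type 1 conventional cells in tissue and of some resident T cells, lies on chromosome 11 at 73090583 to 73147446, plus strand, with 31 exon blocks. Its levels were 0.642, 1.21 and 1.52 CPM in CCl4_PTH livers, 0.331, 0.852 and 1.64 CPM in CCl4 livers and 0.107, 0.297 and 0.672 CPM in control livers. The highest control was exceeded by 5 of the 6 CCl4_PTH livers and 4 of the 6 CCl4 livers. Itgae had risen in CCl4 livers, by 1.52 ± 0.42 (edgeR adjusted p = 0.00532) and in CCl4_PTH livers by 1.85 ± 0.42 (edgeR adjusted p = 0.00294), each on the log2 scale against controls. CCl4_PTH and CCl4 livers differed by 0.33 ± 0.39 (edgeR adjusted p = 0.648), and their ranges overlapped almost wholly. Of 15 T cell markers, 14 were higher in CCl4 than in control livers, and their summed level was 63.2 to 76.1 CPM in CCl4_PTH, 64.4 to 128 CPM in CCl4 and 40.9 to 52.4 CPM in control livers. Most of that sum was Itga1, a collagen-binding integrin chain that other cells also make, at 63.6 ± 8.98 CPM in CCl4 and 43.3 ± 4.18 CPM in control livers (SD, n = 6). Trbc2, a constant part of the T cell receptor, averaged 0.736 ± 0.485 CPM in CCl4_PTH, 1.64 ± 1.38 CPM in CCl4 and 0.255 ± 0.108 CPM in control livers, and was 2.70 ± 0.55 higher in CCl4 than in control livers (log2, edgeR adjusted p = 0.000509). Cd2, an adhesion protein of T cells, had a log2 difference of -1.31 ± 0.46 between CCl4_PTH and CCl4 livers and missed the threshold (edgeR adjusted p = 0.0666). None of the 15 was at 0 in a whole group, and the part of T cells in the Itgae values was not tested.

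Cd209a and Clec10a are C-type lectins that bind sugars on glycoproteins, known from type 2 conventional and monocyte-derived cells and, for Clec10a, from macrophages. Both have close relatives nearby in the mouse genome, so reads may have been split between copies. Cd209a lies on chromosome 8 at 3743397 to 3748984, minus strand, with 6 exon blocks, and was the least abundant of the 8 genes. It had 0.0596, 0.209 and 0.444 CPM in CCl4_PTH livers, 0, 0.180 and 0.333 CPM in CCl4 livers and 0, 0.0362 and 0.248 CPM in control livers (lowest, median and highest of 6). No counts were seen in CCl4 4 and in 3 controls, and the highest control, control 2, had 13 counts. None of the 3 differences of Cd209a passed the test. On the log2 scale they were 1.35 ± 0.89 for CCl4 against control (edgeR adjusted p = 0.225), 0.40 ± 0.81 for CCl4_PTH against CCl4 (0.807) and 1.75 ± 0.88 for CCl4_PTH against control (0.15). Without control 2 the last was 2.65 ± 0.95 and passed, with an adjusted p of 0.0494.

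The RefSeq window of Cd209a, chr8:3748935-3749234 on the minus strand, is shown because it is the only one of the 6 windows found that holds the PU.1-IRF composite motif, a joint site of a pair of myeloid factors. It is the last run of capitals, read on the opposite strand, from -9 to 0 where 0 is the start base, and the 2 other runs in capitals are E-boxes:
Cd209a: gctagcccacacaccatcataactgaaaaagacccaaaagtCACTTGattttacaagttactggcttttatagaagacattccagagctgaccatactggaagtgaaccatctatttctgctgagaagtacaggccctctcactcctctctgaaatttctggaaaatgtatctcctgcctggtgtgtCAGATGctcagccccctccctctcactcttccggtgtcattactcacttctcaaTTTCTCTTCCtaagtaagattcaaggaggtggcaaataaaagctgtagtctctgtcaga

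Clec10a lies on chromosome 11 at 70156197 to 70170834, plus strand, with 10 exon blocks. It had 0.429, 0.602 and 1.09 CPM in CCl4_PTH livers, 0.129, 0.902 and 1.03 CPM in CCl4 livers and 0, 0.156 and 0.410 CPM in control livers. CCl4 8, with 12 counts, was the low CCl4 liver, and the other 5 lay above all controls. All 6 CCl4_PTH livers lay above all controls, the only such member in that comparison, where 9.79% of tested genes were higher and 4.67% lower without overlap. Clec10a was higher in CCl4 livers by 2.35 ± 0.67 (edgeR adjusted p = 0.00721) and in CCl4_PTH livers by 2.17 ± 0.67 (edgeR adjusted p = 0.0209), each on the log2 scale against controls. Between CCl4_PTH and CCl4 livers the log2 difference was -0.19 ± 0.60 (edgeR adjusted p = 0.884).

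Of 17 macrophage and monocyte markers, 14 were higher in CCl4 than in control livers, 7 were lower and 1 (Clec4f, a Kupffer cell lectin) higher in CCl4_PTH than in CCl4 livers. Their summed level was 423 to 910 CPM in CCl4_PTH, 554 to 1590 CPM in CCl4 and 266 to 388 CPM in control livers, and none was at 0 in a whole group. Cd68, a lysosomal protein of macrophages, averaged 10.3 ± 2.32 CPM in CCl4_PTH, 21.9 ± 8.69 CPM in CCl4 and 4.16 ± 0.633 CPM in control livers (SD, n = 6). Its log2 difference was 2.39 for CCl4 against control (edgeR adjusted p = 1.98e-07) and -1.08 for CCl4_PTH against CCl4 (edgeR adjusted p = 0.00415). The part of macrophages in the values of Clec10a and Cd209a was not tested.

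Siglech, a surface receptor of mouse plasmacytoid cells, lies on chromosome 7 at 55768178 to 55778925, plus strand, with 6 exon blocks. It had 0.179, 0.603 and 1.32 CPM in CCl4_PTH livers, 0.480, 1.51 and 1.94 CPM in CCl4 livers and 0, 0.439 and 0.551 CPM in control livers. The libraries control 5 and control 8 had no counts, and 5 of the 6 CCl4 livers lay above the highest control. Siglech was higher in CCl4 than in control livers by 2.09 ± 0.71 on the log2 scale (SE, edgeR adjusted p = 0.0217). Below the lowest CCl4 liver lay 3 of the 6 CCl4_PTH livers, and the log2 difference between these groups, -1.03 ± 0.67, did not pass the test (edgeR adjusted p = 0.352). Nor did that of CCl4_PTH from control, 1.07 ± 0.70 (edgeR adjusted p = 0.28).

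Flt3, the receptor tyrosine kinase through which its ligand drives dendritic cell development, lies on chromosome 5 at 147330741 to 147400489, minus strand, with 25 exon blocks. It had 0.468, 1.71 and 1.92 CPM in CCl4_PTH livers, 0.998, 1.92 and 2.87 CPM in CCl4 livers and 0.139, 0.442 and 0.971 CPM in control livers. All CCl4 livers lay above all controls, and so did the CCl4_PTH livers other than CCl4_PTH 1. The log2 fold change was 1.95 ± 0.42 for CCl4 against control (edgeR adjusted p = 0.000756) and 1.52 ± 0.41 for CCl4_PTH against control (edgeR adjusted p = 0.00989). CCl4_PTH and CCl4 livers differed by -0.42 ± 0.39 (edgeR adjusted p = 0.535). Flt3l, the gene of the ligand, averaged 3.26 ± 1.11 CPM in CCl4_PTH, 3.13 ± 1.12 CPM in CCl4 and 2.99 ± 0.406 CPM in control livers (SD, n = 6). Its log2 fold change of 0.06 ± 0.25 between CCl4 and control livers did not pass the test (edgeR adjusted p = 0.862). Flt3l shares 856 exonic bases with Gm45713 on its strand, so its counts are uncertain.

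Zbtb46, a zinc finger repressor of conventional dendritic cells that endothelial cells also make, lies on chromosome 2 at 181387762 to 181459426, minus strand, with 6 exon blocks. It was the most abundant of the 8 genes in CPM, with 7.51, 8.44 and 9.84 CPM in CCl4_PTH livers, 7.15, 8.47 and 9.26 CPM in CCl4 livers and 5.76, 7.03 and 8.94 CPM in control livers. The 3 groups overlapped. On the log2 scale the differences were 0.21 ± 0.11 for CCl4 against control (edgeR adjusted p = 0.14), 0.04 ± 0.11 for CCl4_PTH against CCl4 (0.859) and 0.25 ± 0.11 for CCl4_PTH against control (0.108). The last passed without control 4 (0.31, adjusted p = 0.0484). With libraries scaled by their totals alone, Zbtb46 was 0.79 higher in CCl4 than in control livers (adjusted p = 0.00107), while the median of all genes was then 0.63 higher.

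Of 12 endothelial markers, 5 were higher and 2 lower in CCl4 than in control livers, with a median log2 fold change of 0.07. Their summed level was 224 to 349 CPM in CCl4_PTH, 242 to 286 CPM in CCl4 and 244 to 282 CPM in control livers, and none was at 0 in a whole group. Vwf, the clotting protein of endothelium, was 1.43 ± 0.15 higher (log2) in CCl4 than in control livers, with an edgeR adjusted p of 6.16e-07. Pecam1, an adhesion protein of endothelium and some leukocytes, was 0.67 ± 0.11 higher (edgeR adjusted p = 9.93e-05), while Clec4g, a lectin of liver sinusoids, was lower by -0.32 ± 0.10 (edgeR adjusted p = 0.0119). Clec4g was also the 1 endothelial marker that was higher in CCl4_PTH than in CCl4 livers, by 0.41 ± 0.10 (log2, edgeR adjusted p = 0.0126). The part of endothelium in the Zbtb46 values was not tested.

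The RefSeq window of Zbtb46, chr2:181424339-181424638 on the minus strand, starts inside the GENCODE gene. It is shown because it is the only one of the 6 windows with the AP-1 letters TGANTCA, to which the BATF family binds with its partners, here TGACTCA from -61 to -55. The other runs in capitals are 6 E-boxes:
Zbtb46: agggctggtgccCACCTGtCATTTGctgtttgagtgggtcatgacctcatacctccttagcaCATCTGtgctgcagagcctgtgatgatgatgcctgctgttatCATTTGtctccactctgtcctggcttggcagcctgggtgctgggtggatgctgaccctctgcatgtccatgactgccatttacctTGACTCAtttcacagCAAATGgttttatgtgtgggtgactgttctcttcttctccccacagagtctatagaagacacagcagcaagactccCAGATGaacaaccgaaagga

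RefSeq windows were found for 6 of the 8 genes, and Itgae and Clec10a had none in the table used. Searched on both strands, with none of the matches in the 6 windows overlapping another, TGANTCA was in 1 of the 6, the PU.1-IRF composite motif in 1 and CANNTG in all 6. Over 32851 windows of 300 bases, the shares were 7.81%, 2.72% and 72.3%. A match of letters is a description and not a bound site.

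**Figure D3:**
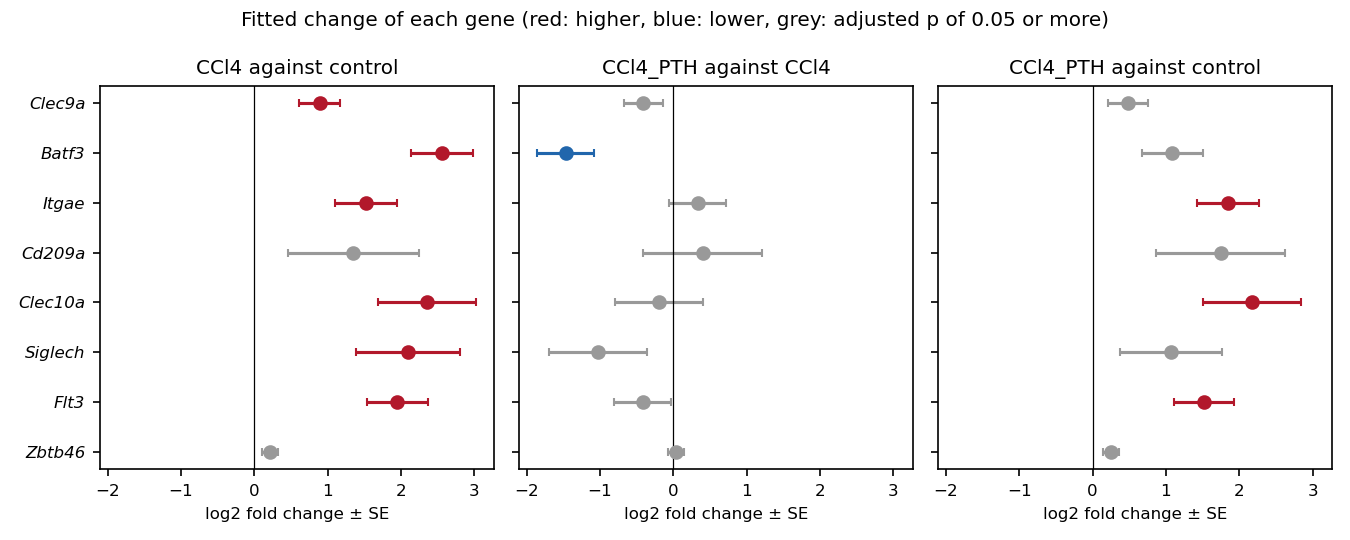
Log2 fold changes of the 8 dendritic cell genes in the 3 comparisons (horizontal axis), with bars of 1 SE from the fit of 18 livers. The test was passed by 6 of the 8 genes in CCl4 against control, by 1 (Batf3, at -1.47) in CCl4_PTH against CCl4 and by 3 in CCl4_PTH against control.

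Between genes, levels were compared per kilobase of exon. Clec9a and Zbtb46 had the highest means: Clec9a had 1.28 ± 0.338 CPM per kilobase in CCl4_PTH, 1.70 ± 1.03 in CCl4 and 0.919 ± 0.158 in control livers, and Zbtb46 had 0.996 ± 0.105, 0.968 ± 0.105 and 0.839 ± 0.137 in the same groups (SD, n = 6). Clec9a was above Zbtb46 in every CCl4 liver, while in CCl4_PTH and control livers the order of these 2 genes varied between livers. In CCl4 livers Batf3 came next with 0.748 ± 0.416 CPM per kilobase, then Siglech with 0.411 ± 0.155 and Flt3 with 0.320 ± 0.125. There Batf3 did not differ from Zbtb46 beyond the spread, and was above Zbtb46 in CCl4 2 and CCl4 4. Batf3 was below Clec9a in every CCl4 liver. In control livers Batf3 had 0.125 ± 0.0417, Siglech 0.0966 ± 0.0766 and Flt3 0.0840 ± 0.0512 CPM per kilobase, values within each other's SD. The lowest mean in each group was that of Cd209a, at 0.146 ± 0.0844 CPM per kilobase in CCl4_PTH, 0.111 ± 0.0689 in CCl4 and 0.0434 ± 0.0611 in control livers. In controls it was not separable from Clec10a (0.0529 ± 0.0523) and Itgae (0.0690 ± 0.0456).

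The 8 genes were also set against Ptprc, which encodes CD45, a phosphatase on all leukocytes. Ptprc averaged 43.7 ± 12.2 CPM in CCl4_PTH, 78.6 ± 44.2 CPM in CCl4 and 12.8 ± 2.79 CPM in control livers (SD, n = 6). It was 2.62 ± 0.31 higher in CCl4 than in control livers (log2, edgeR adjusted p = 3.08e-06), and CCl4_PTH livers differed from CCl4 livers by -0.85 ± 0.29 (edgeR adjusted p = 0.0668). The differences between the fold changes of the 8 genes and that of Ptprc were not tested. In CCl4 against control, the log2 fold changes of Batf3, Clec10a and Siglech lay within their own SE of that of Ptprc. Clec9a made 7.54% to 11.7% of the Ptprc counts in CCl4_PTH, 4.63% to 10.3% in CCl4 and 19.4% to 26.5% in control livers. Zbtb46 made 13.7% to 27.4% in CCl4_PTH, 6.08% to 20.5% in CCl4 and 39.7% to 88.0% in control livers. These 2 genes were lower without overlap in both groups given CCl4, against controls, as were 57.6% of all tested genes in CCl4_PTH and 67.4% in CCl4 livers. Higher without overlap relative to Ptprc were 0.591% of tested genes in CCl4_PTH and 0.856% in CCl4 livers, and none of the 8. The ranges of the other 6 genes overlapped controls in both. For Batf3 the medians were 0.931% in CCl4_PTH, 1.15% in CCl4 and 1.47% in control livers, and for Itgae 2.79%, 1.13% and 2.32%. Between CCl4_PTH and CCl4 livers, all 8 ranges relative to Ptprc overlapped, Batf3 included, where 1.5% of all tested genes were higher and 0.0824% lower without overlap.

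**Figure D4:**
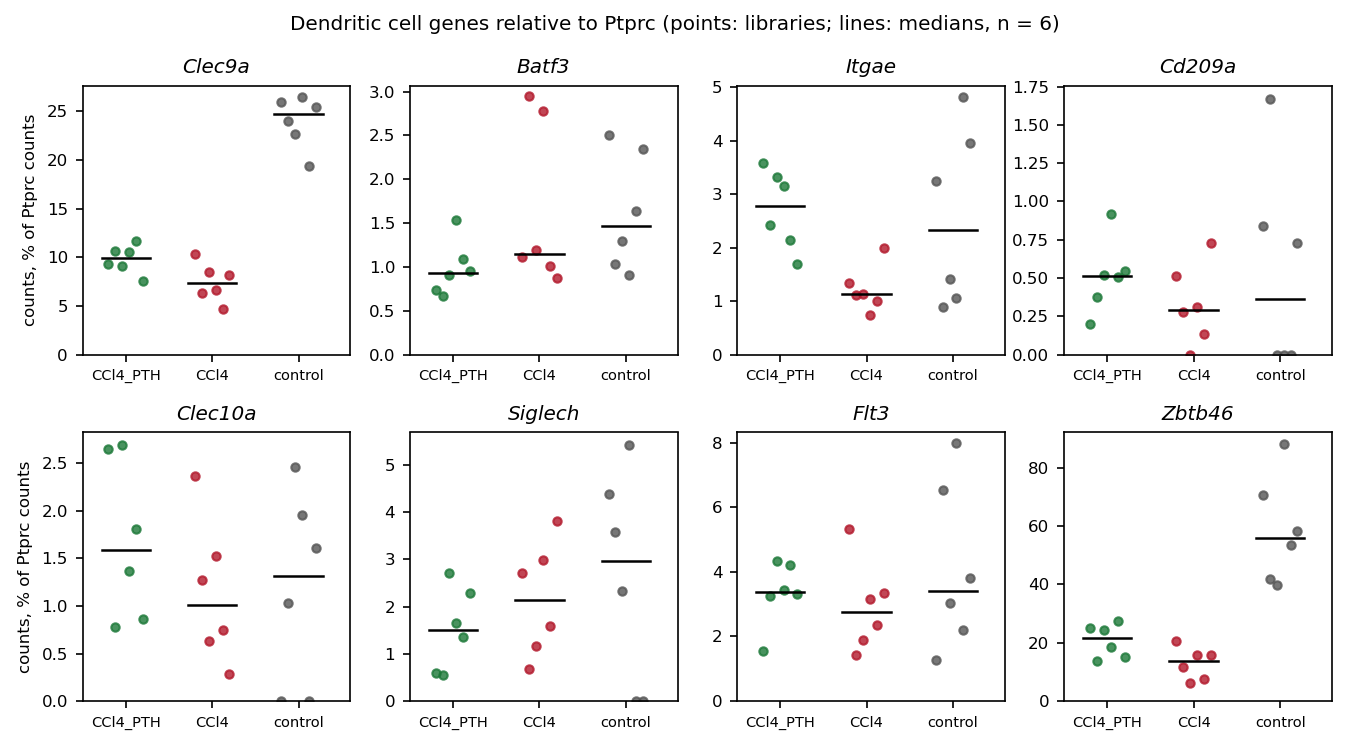
Counts of the 8 dendritic cell genes as a percentage of the Ptprc counts of the same library (vertical axis, linear, a scale of its own for each gene); points are libraries and lines are medians of 6. Control points of Clec9a (19.4% to 26.5%) and Zbtb46 (39.7% to 88.0%) lie above all points of the other 2 groups, and the groups overlap for the other 6 genes.

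Other genes of type 1 conventional cells were counted next, from a list of 14. Of these, 12 were higher in CCl4 than in control livers and none lower, with a median log2 fold change of 1.93, against 0.05 over all genes, and 9 were higher in CCl4_PTH than in control livers. The 2 not called in CCl4 against control were Xcr1, given below, and Gcsam (log2 2.86 ± 1.22, edgeR adjusted p = 0.0601). The part of other cells in the values of these 14 genes was not tested. Rab7b, a small GTPase of the endosomal path, averaged 2.72 ± 0.962 CPM in CCl4_PTH, 6.92 ± 3.65 CPM in CCl4 and 0.859 ± 0.246 CPM in control livers, and was the 1 gene of the list lower in CCl4_PTH than in CCl4 livers (log2 -1.34 ± 0.31, edgeR adjusted p = 0.00926). Wdfy4, which type 1 cells need to cross-present antigen, rose by 1.98 ± 0.23 in CCl4 livers (log2, edgeR adjusted p = 2.23e-06). Irf8, the transcription factor that works with Batf3, was higher by 2.52 ± 0.37 (edgeR adjusted p = 2.85e-05) in CCl4 than in control livers, and at -1.09 ± 0.35 in CCl4_PTH against CCl4 its adjusted p was 0.0506. Xcr1, the chemokine receptor specific to type 1 cells, averaged 0.673 ± 0.433 CPM in CCl4_PTH, 0.643 ± 0.576 CPM in CCl4 and 0.334 ± 0.101 CPM in control livers and passed in no comparison (log2 0.95 ± 0.55 for CCl4 against control, edgeR adjusted p = 0.17). Id2, a regulator that type 1 cells need, had a log2 difference of -0.05 ± 0.16 in CCl4 against control (edgeR adjusted p = 0.83).

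Of 14 genes of type 2 conventional cells 12 could be tested, and 8 were higher and none lower in CCl4 than in control livers. The 4 not called were Mgl2 (log2 0.16 ± 1.1, edgeR adjusted p = 0.919), Cd209b (0.59 ± 0.41, 0.257), Cd209c (0.54 ± 0.54, 0.433) and Esam (0.15 ± 0.15, 0.429). The part of macrophages and other cells in the values of this list was not tested. Sirpa, an inhibitory receptor shared with macrophages, averaged 57.8 ± 17.2 CPM in CCl4_PTH, 97.8 ± 42.5 CPM in CCl4 and 15.1 ± 2.39 CPM in control livers. It was 1 of 3 genes of the list lower in CCl4_PTH than in CCl4 livers (log2 -0.76 ± 0.24, edgeR adjusted p = 0.0443), with Cd300a, a lipid receptor of myeloid cells (-0.89 ± 0.26, 0.0298), and Klf4, a transcription factor of these cells (-0.97 ± 0.22, 0.00926). Irf4, a transcription factor of type 2 cells, was higher in CCl4 than in control livers by 1.72 ± 0.23 (log2, edgeR adjusted p = 8.67e-06).

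Of 16 genes of plasmacytoid cells 14 could be tested, and 11 were higher and none lower in CCl4 than in control livers. The 3 not called were Bst2 (log2 0.21 ± 0.24, edgeR adjusted p = 0.497), Ccr9 (-0.28 ± 0.20, 0.254) and Smim5 (0.61 ± 0.32, 0.132). In CCl4_PTH against CCl4 livers, 6 were lower and none higher. Among the 6 was Ly6c2, which is also in the macrophage and monocyte list. The part of other cells in the values of this list was not tested. Ly6d, a surface protein of lymphoid progenitors and plasmacytoid cells, averaged 3.92 ± 2.53 CPM in CCl4_PTH, 19.4 ± 5.93 CPM in CCl4 and 0.396 ± 0.224 CPM in control livers. Its log2 difference was 5.62 ± 0.45 for CCl4 against control (edgeR adjusted p = 6.93e-08) and -2.30 ± 0.37 for CCl4_PTH against CCl4 (edgeR adjusted p = 0.0014). Runx2, a transcription factor of plasmacytoid cells and bone, was lower by -0.86 ± 0.28 in CCl4_PTH than in CCl4 livers (log2, edgeR adjusted p = 0.0496). Runx2 overlaps an antisense gene, Runx2os1, over 519 bases. Tcf4, the E-box binding factor that sets the plasmacytoid fate, was 0.54 ± 0.07 higher in CCl4 than in control livers (log2, edgeR adjusted p = 8.27e-06), at 35.6 ± 2.46 CPM against 24.5 ± 1.86 CPM. It did not pass in CCl4_PTH against CCl4 (-0.05 ± 0.07, edgeR adjusted p = 0.736).

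Genes of mature, migrating cells, 17 tested, held 14 that were higher in CCl4 than in control livers and 4 that were lower in CCl4_PTH than in CCl4 livers. Cd83, a surface protein of mature cells, averaged 1.59 ± 0.891 CPM in CCl4_PTH, 4.38 ± 1.78 CPM in CCl4 and 1.01 ± 0.296 CPM in control livers, with a log2 difference of -1.46 ± 0.36 between CCl4_PTH and CCl4 livers (edgeR adjusted p = 0.0137). Relb, an NF-kB subunit, and Traf1, an adaptor of TNF receptors, were higher in CCl4 than in control livers by 1.98 ± 0.24 and 3.25 ± 0.44 (log2, edgeR adjusted p = 2.76e-06 and 1.04e-05). Among growth factors and recruitment genes, 18 tested, 11 were higher and 1 lower in CCl4 than in control livers. In CCl4_PTH livers 4 were lower than in CCl4 livers, among them Ccr2, the receptor that brings monocytes out of the marrow, at 6.38 ± 2.48 CPM in CCl4_PTH, 16.8 ± 6.59 CPM in CCl4 and 1.19 ± 0.289 CPM in control livers (log2 -1.39 ± 0.28 for CCl4_PTH against CCl4, edgeR adjusted p = 0.00503). Ccr2 and Csf1r are also in the macrophage and monocyte list, and Ltb is also in the type 2 list, so the counts of these lists are not independent. Cx3cr1, the fractalkine receptor, was higher in CCl4 than in control livers by 3.58 ± 0.36 (log2, edgeR adjusted p = 5.24e-07), and overlaps an antisense gene over 78 bases. Csf2, the gene of GM-CSF, was too low to test, with 5, 11 and 8 counts in CCl4 1, 4 and 7 and 0 in the other 15 livers.

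All 16 genes of the pan-dendritic and antigen presentation list passed in CCl4 against control, 14 higher and 2 lower. Itgax, the integrin chain CD11c of dendritic cells and many macrophages, averaged 7.17 ± 2.82 CPM in CCl4_PTH, 19.0 ± 11.6 CPM in CCl4 and 0.957 ± 0.202 CPM in control livers. Its log2 difference was 4.31 ± 0.42 for CCl4 against control (edgeR adjusted p = 5.13e-07) and -1.40 ± 0.36 for CCl4_PTH against CCl4 (edgeR adjusted p = 0.0188). H2-DMb2, a chain that loads peptide onto class II molecules, was higher in CCl4 than in control livers by 2.57 ± 0.39 (log2, edgeR adjusted p = 3.12e-05). The 2 genes that fell, Kmo and Dpp4, are enzymes that hepatocytes also make. Kmo, of the kynurenine path, averaged 113 ± 16.1 CPM in CCl4_PTH, 75.7 ± 19.7 CPM in CCl4 and 143 ± 10.7 CPM in control livers. It was lower in CCl4 than in control livers by -0.92 ± 0.14 (log2, edgeR adjusted p = 4.08e-05) and higher in CCl4_PTH than in CCl4 livers by 0.58 ± 0.14 (edgeR adjusted p = 0.0139). In CCl4_PTH against control, 13 of the 16 were higher.

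Markers of other cells moved in the same livers. Of 11 B cell and plasma cell markers, 10 were higher in CCl4 than in control livers, and 1, Cd22, an inhibitory B cell receptor, was lower in CCl4_PTH than in CCl4 livers (log2 -1.14 ± 0.36, edgeR adjusted p = 0.0469). Cd79b, a signalling chain of the B cell receptor, was 1.77 ± 0.33 higher in CCl4 than in control livers (log2, edgeR adjusted p = 0.000194). Natural killer and innate lymphoid markers, 9 tested, held 4 higher and 1 lower in CCl4 than in control livers. Their summed level was 19.9 to 47.4 CPM in CCl4_PTH, 15.8 to 36.7 CPM in CCl4 and 28 to 58.6 CPM in control livers. The sum had a median of 24.2 CPM in CCl4 and 40.6 CPM in control livers. The median log2 fold change of the 9 tested was 2.47, so sum and median fold change moved in opposite directions. The genes that make up most of the sum are not given here. Of the 10 markers found, 2 had no counts in any control liver, and fold changes from such low control levels are uncertain. Il7r, the interleukin-7 receptor, averaged 2.55 ± 0.563 CPM in CCl4_PTH, 4.68 ± 2.33 CPM in CCl4 and 0.680 ± 0.410 CPM in control livers, and its log2 difference was 2.80 ± 0.36 for CCl4 against control (edgeR adjusted p = 5.19e-06). Klrb1b, an inhibitory lectin of natural killer cells, was 4.54 ± 0.82 higher in CCl4 than in control livers (log2, edgeR adjusted p = 0.000175), and shares 599 exonic bases with Gm44511. It averaged only 0.0468 ± 0.0938 CPM in control livers (SD, n = 6), so its fold change rests on few control counts. Of 8 tested markers of blood progenitors, 4 were higher and 1 lower in CCl4 than in control livers. Cd34, a sialomucin of progenitors and endothelium, was among them, at 5.67 ± 1.69 CPM in CCl4 and 0.949 ± 0.415 CPM in control livers (log2 2.57 ± 0.29, edgeR adjusted p = 1.68e-06). Cd48, a surface protein of leukocytes and progenitors, was 2.69 ± 0.33 higher (log2, edgeR adjusted p = 3.1e-06). Cd22 and Cd34 overlap antisense genes over 479 and 148 bases. Of 9 hepatocyte markers, 5 were lower and none higher in CCl4 than in control livers, among them Serpina1a, a protease inhibitor (log2 -0.96 ± 0.17, edgeR adjusted p = 0.000155), and Apoa1, an apolipoprotein (-0.91 ± 0.17, 0.000288). Alb, the albumin gene, was not one of them, with a log2 difference of -0.54 ± 0.25 (edgeR adjusted p = 0.0878). In CCl4_PTH against CCl4, none of the T cell, natural killer, progenitor and hepatocyte markers passed with edgeR. At an unadjusted p under 0.05, 5 of the 15 T cell markers were lower and 3 of the 9 hepatocyte markers higher, and with DESeq2 3 and 1 passed. Of the 9 natural killer and innate lymphoid markers, 1 was higher and 2 lower at the unadjusted p, and 1 and 1 with DESeq2. Of the 8 progenitor markers, 1 was higher and 1 lower by either count. The shares of all tested genes by these rules are not given here, so these counts are descriptions only. The part of these cells in the values of the 8 genes was not tested.

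**Figure D5:**
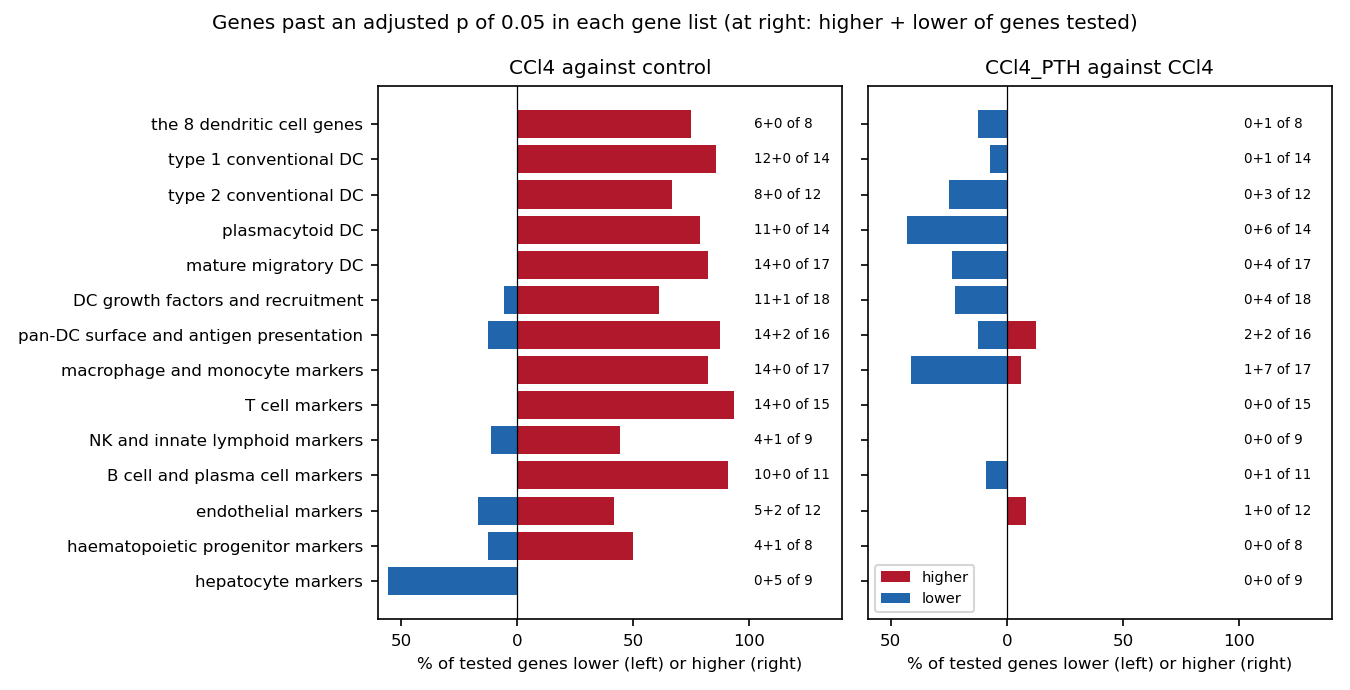
Share of tested genes past an adjusted p of 0.05 in each gene list (horizontal axis, percent, higher to the right and lower to the left) in CCl4 against control and CCl4_PTH against CCl4, with the counts at the right as higher + lower of genes tested. In CCl4 against control most called genes of the dendritic cell, T cell, B cell and macrophage lists are higher, with 2 lower in the antigen presentation list and 1 lower in the recruitment list, and the hepatocyte bar points left only, and in CCl4_PTH against CCl4 the longest bars belong to the plasmacytoid (6 of 14 lower) and macrophage (7 of 17 lower) lists.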

How the data were processed

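Long RNA after removal of ribosomal RNA was sequenced from 18 livers. The table the authors deposited gives each gene an estimated count in each liver, in whole numbers that are not scaled to depth. Per the submitters' processing notes, the tools were HISAT2 2.2.1, StringTie 2.1.5 and Bowtie2 2.5.1, with cutadapt 4.2 and FastQC 0.11.9, on the build GRCm38, and their roles are not stated. The counter, its annotation and its use of strand are not given in the sources used here, so reads of overlapping or near-identical genes may be split wrongly.

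Counts were rounded, which changed 0 values. Total counts ran from 67229863 to 118877267 per library, and the 45 pairs inside groups all differed by more than counting noise (chi-square of at least 57.9 per gene), so none was taken as a repeat deposit. Per the labels, the replicates of a group are 6 mice. All 3 comparisons came from one edgeR 4.0.16 fit in R 4.3.3 (filterByExpr with a minimum count of 10, TMM, robust quasi-likelihood F test, 3 groups, no block, 15 residual degrees of freedom before sharing across genes, Benjamini-Hochberg over 21840 genes). The SE was taken as the log2 fold change over the root of its F value. The steps were tested on simulated counts. Exon lengths and coordinates came from GENCODE M21, which matched 54723 identifiers, and promoters from RefSeq. Alternatives were DESeq2 1.42.0, library sizes only, no low count filter, only the 2 groups compared, a replicate block and each library left out.

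The 8 genes and all lists were chosen with earlier results of these data known. Named genes are the 8, 10 genes followed throughout, and from each list the 2 genes with the smallest p in CCl4 against control and the 1 with the smallest p in CCl4_PTH against CCl4. Dpp4, Clec4f, Clec1b, Bst2, Ccr9, Smim5, Ly6c2, Mgl2, Cd209b, Cd209c, Esam, Gcsam, Csf1r and Ltb were named after their values were seen. A planned search of the protein sequences was not done here. A gene among those most like Itgae is not reported here.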

Additional observations from a re-analysis of the deposited data

Results flagged for a closer look

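In each of the 24 sets of 6 livers (8 genes in 3 groups), the highest or lowest liver was set against the spread of the rest with Dixon's ratio, and 2 sets held a liver beyond the 95% limit. Chance alone gives such a liver in about 1 of 20 sets. Clec9a was at 12.2 CPM in CCl4 4, with the next highest CCl4 liver at 5.69 CPM and the lowest at 2.99 CPM. Cd209a was at 0.248 CPM in control 2, with the next highest control at 0.0927 CPM and the lowest at 0 CPM.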

How the results depend on the processing

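For the 8 genes in 3 comparisons, 24 results, 552 values were computed under alternatives. Of these, 532 kept their side of the threshold, 8 lost the call, 12 gained it, and 0 passed in the opposite direction. A change of sign short of the threshold is not shown by these counts. Most of the values, 18 for each result, came from fits without 1 library, some of them a library outside the comparison. A result that never passed also counts as kept. Of the 24 results, 9 changed their call under at least 1 alternative. The number of the 8 genes higher in CCl4 than in control livers stayed at 6 with DESeq2 and with no filter. It also stayed at 6 with only the 2 groups compared and without any 1 library. With library sizes only it was 7 (Zbtb46 added), where 91.4% of all calls were higher, and with the replicate block it was 5. All genes passing in CCl4 against control numbered 10362, and 9335 to 10918 without 1 library. Their totals with library sizes only and with the replicate block are not given here. In CCl4_PTH against CCl4, the 1 lower gene (Batf3) became 0 with only the 2 groups compared and with the replicate block (adjusted p = 0.21), and 0 to 1 without 1 library. All genes passing in that comparison numbered 2632, against 1097 with library sizes only, 84 with the replicate block and 1509 to 3854 without 1 library (1523 without CCl4 4, 1598 without CCl4 7, 1704 without CCl4_PTH 6 and 1509 without CCl4_PTH 7). In CCl4_PTH against control, the 3 higher genes became 7 with library sizes only and 1 with the replicate block, and genes passing overall numbered 6051, against 9912 and 3343. The share of calls that were higher was 55.3%, 58.9% and 62.8% in CCl4 against control, CCl4_PTH against CCl4 and CCl4_PTH against control, and 91.4%, 43.4% and 96.4% with library sizes only, where the median of all genes moved to 0.63 and 0.51 in the 2 comparisons with controls. The causes were not tested. The numbers in the labels did not pair the livers: livers with the same number had correlations of -0.21 to 0.08 over 13 pairs, and 0 pairs passed 0.1. With the replicate block the calls of Siglech (CCl4 against control, adjusted p = 0.0783), Flt3 (0.0515) and Clec10a (0.0766, both CCl4_PTH against control) were lost, in a fit with 8 residual degrees of freedom. Among the lists in CCl4_PTH against CCl4, DESeq2 called 5 of 14 type 1, 5 of 12 type 2, 7 of 17 mature and 8 of 18 recruitment genes lower, where edgeR called 1, 3, 4 and 4. The share of all tested genes that DESeq2 called lower is not given here, so these counts are descriptions only. Depth limits Cd209a most, with 26 counts over all 6 controls.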

Other observations

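Over the 18 livers, with each group's mean taken away, the 28 pairs had Pearson r of log2 CPM from -0.41 (Itgae with Siglech) to 0.50 (Clec9a with Flt3), with a median of 0.10. These are descriptions, since the livers share depth and scaling.

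Of 13132 protein-coding genes with a mean of at least 0.5 CPM, those most like each of the 8 by the same measure were as follows. Clec9a was closest to H2-Aa, an MHC class II chain (r = 0.90), and H2-Q4, an MHC class I gene (0.89). Flt3 was closest to Cbfa2t3, a transcriptional co-repressor of blood cells (0.89), and P2ry10 (0.85). For Itgae, Atp8b2 was at 0.79. Batf3 was closest to Tor4a (0.87) and Dph2 (0.79), Zbtb46 to Mum1 (0.83) and Tctn1 (0.81), and Clec10a to Mblac1 and Cd36 (0.80 each). Cd209a was closest to Pyurf (0.85) and Xkr9 (0.84), and Siglech to Krt80 (0.75) and Mcmdc2 (0.74).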
